A study of Mus musculus with 12 samples.

Results

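The genes described here are those of coenzyme Q synthesis, led by Coq8a and its isoforms. They were the 10 genes Coq8a, Coq8b, Coq2, Coq3, Coq5, Coq6, Coq7, Coq9, Pdss1 and Pdss2, chosen by name, with every transcript that the deposited table of protein-coding transcripts listed for them. That gave 25 transcripts of the 29883 in the table, 6 of them of Coq8a and 19 of the other 9 genes, and 10 gene sums of the 14188 genes in the table. Coq8a was chosen because its FPKM, and above all that of its transcript Coq8a-217, differed between the same mice that are compared here. Its values are therefore given as a description, with no test.

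The livers came from male mice of a strain on which the sources differ: the labels give C57BL/8 and the study's methods C57BL/6J. All of them received the same CCl4 dosing. From 6 weeks of age they were injected intraperitoneally, 2 times a week, with 10 µl per g of a CCl4 and corn oil mixture. CCl4 is a solvent that injures the liver and scars it under repeated dosing. The PZH group (n = 6 mice) also received 0.25 mg per g of Pien Tze Huang (PZH), a compound Chinese medicine, into the stomach 1 time a day, and the control group (n = 6 mice) received double distilled water in its place. Livers were taken in week 8. For that week the paper reports less liver injury in the PZH group, by lower serum ALT and AST and less Sirius red staining. The groups thus shared the dosing but not the degree of injury. Mice without CCl4 are not part of these data, so no value below is a healthy level. Levels are in FPKM, the number of fragments per kilobase of transcript, scaled to the mapped fragments of each library, so they can be compared between genes and transcripts of unlike length, and a gene sum adds the FPKM of a gene's listed transcripts.

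Coenzyme Q is a lipid of the inner mitochondrial membrane. It takes electrons from respiratory complexes and from several dehydrogenases that burn fat, amino acids and sulphide, and passes them on along the respiratory chain. Its ring comes from tyrosine, its long tail is built from the isoprenoid units that also serve cholesterol synthesis, and the enzymes that finish the ring gather in a complex on the matrix side of the inner membrane. Coq8a (also called Adck3) and Coq8b (Adck4) are paralogs of the UbiB family, atypical kinase-like ATPases that this complex needs. In humans, loss of COQ8A causes a cerebellar ataxia and loss of COQ8B a kidney disease.

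Coq8a lies on chromosome 1, on the minus strand. The annotation of the GRCm38 genome build gave it 17 transcripts, 12 of them protein-coding, and the deposited table listed 6. Coq8a-201 (ENSMUST00000027766, chr1:180165238-180196020, 4026 bases) and Coq8a-217 (ENSMUST00000170472, chr1:180165238-180193485, 3928 bases) are the full-length forms, with 15 exons each. They share 14 of these exons and an identical coding sequence of 1935 bases, 645 codons without the stop. They differ only in the noncoding exon 1, which has 148 bases in Coq8a-201 and 50 in Coq8a-217, whose start lies 2535 bases downstream of that of Coq8a-201. Exon 2 holds 9 bases before the start codon, so the same protein is read from both. The joins of exon 1 to exon 2 are the only stretches of these transcripts that tell them apart across a splice, and are shown for that reason, 15 bases of exon 1 in capitals followed by 15 bases of exon 2.
Coq8a-201: CCTTCCTGCAGCCCGctctgaaggatggct
Coq8a-217: ACTGAATATATACAGctctgaaggatggct
Of the 50 bases of exon 1 in Coq8a-217, 48 also lie in Coq8a-207, and only 2 bases of Coq8a-217 lie in no other annotated transcript. The division of FPKM between Coq8a-201 and Coq8a-217 thus rests on fragments at their first exons. Their sum depends on it only a little, since FPKM is per length and their lengths are close.

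The 4 minor transcripts have 3 exons each and are annotated as incomplete at the 3′ end. Coq8a-207 (ENSMUST00000160482, 447 bases) starts 2537 bases downstream of the start of Coq8a-201, at the first exon of Coq8a-217. Coq8a-203 (ENSMUST00000159914, 386 bases) starts 2358 bases downstream, with an exon 1 of 60 bases of its own. Coq8a-213 (ENSMUST00000161746, 202 bases) starts within exon 1 of Coq8a-201, 118 bases downstream of its start. Coq8a-215 (ENSMUST00000162725, 673 bases) starts 13220 bases downstream, inside the long first intron. The map of exons shows these 6 transcripts.

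**Figure D1:**
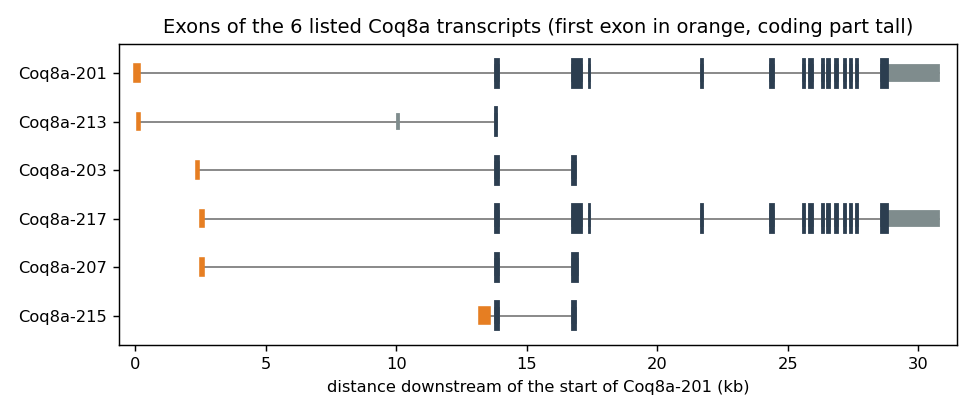
Exons of the 6 listed Coq8a transcripts along the gene, 5′ to 3′, as the distance in kb downstream of the start of Coq8a-201. First exons are orange, coding parts are tall dark boxes and other parts of exons are low boxes. Coq8a-201 and Coq8a-217 differ only at the first exon, where Coq8a-217 starts 2535 bases downstream.

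Since the full-length forms differ at their starts, the 250 bases upstream of each are shown, from RefSeq (GRCm38.p6), in the direction of the gene. Capitals mark CpG dinucleotides. The first lies at chr1:180196021-180196270 and the second at chr1:180193486-180193735, both on the minus strand.
Upstream of Coq8a-201: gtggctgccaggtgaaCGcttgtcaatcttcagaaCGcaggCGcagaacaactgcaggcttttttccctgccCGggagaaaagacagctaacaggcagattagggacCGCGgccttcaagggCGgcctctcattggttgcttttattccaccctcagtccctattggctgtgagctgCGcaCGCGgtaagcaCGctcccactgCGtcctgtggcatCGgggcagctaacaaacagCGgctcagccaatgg
Upstream of Coq8a-217: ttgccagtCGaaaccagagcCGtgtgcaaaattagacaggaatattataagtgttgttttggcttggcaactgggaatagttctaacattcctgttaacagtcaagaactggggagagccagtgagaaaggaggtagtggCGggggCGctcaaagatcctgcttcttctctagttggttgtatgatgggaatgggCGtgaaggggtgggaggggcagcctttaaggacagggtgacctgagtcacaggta
With the first 50 bases of the transcript added, the window of Coq8a-201 held 22 CpG and was 61.7% G or C, and 76.9% of the 32817 RefSeq promoter windows of the same length held fewer CpG. The window of Coq8a-217 held 6 CpG at 48.7% G or C, and 43.6% of windows held fewer. The median window held 7 CpG. Both strands were searched for the letters of 5 motifs: the TATA box TATAAA (in 13.6% of all windows), the CCAAT box CCAAT (37.4%), the GC box GGGCGG (35.6%), the E-box CACGTG (7.15%) and the D-box TTATGTAA (0.935%). The window of Coq8a-201 held 3 CCAAT boxes and 1 GC box, and that of Coq8a-217 held none of the 5. Over the 10 windows of the 8 member genes in the table, 3 held a CCAAT box, 5 a GC box and 0 any of the other 3 motifs. These are matches of letters only. Exon 1 of Coq8a-203 lies within the bases printed upstream of Coq8a-217, 177 bases from start to start.

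As a gene, Coq8a stood far higher in the PZH group. Its sum was 42.3, 30.3, 46.2, 51.8, 46.0 and 46.5 FPKM in PZH mice 1 to 6. In control mice 1 to 6 it was 3.91, 11.0, 14.1, 8.56, 5.15 and 7.14 FPKM. The groups did not overlap, and the lowest PZH mouse was above the highest control mouse by a wide gap. The means were 43.9 ± 7.30 FPKM (SD, n = 6) and 8.31 ± 3.79 FPKM (SD, n = 6), a 5.28-fold difference. On the scale of log2(FPKM + 1) the difference was 2.35 (SE 0.24), the 13th largest rise of the 14188 genes by size. The coefficient of variation was 16.6% among PZH mice and 45.6% among control mice. Across the table the median gene was lower in the PZH group, at −0.11 on this scale. Dividing each mouse by a median-ratio size factor moved that median by 0.109 to −0.0010 and the Coq8a difference to 2.53.

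Transcript Coq8a-217 was near 0 in every control mouse and among the abundant transcripts of the gene in the PZH group. In PZH mice 1 to 6 it was listed at 2.53, 24.1, 16.9, 21.1, 23.6 and 37.6 FPKM. In control mice 1 and 2 it was listed at 0, and in control mice 3 to 6 at 0.00035, 0.0024, 0.0015 and 0.0039 FPKM. The groups did not overlap, and PZH mouse 1 was far below the other PZH mice. The PZH mean was 20.97 ± 11.4 FPKM (SD, n = 6). No fold change is given against such levels. On the log2(FPKM + 1) scale the difference was 4.16 (SE 0.45), the 3rd largest rise of the 29883 transcripts by size, and with a pseudocount of 0.1 in place of 1 it was 7.35. Among all transcripts, 3 were at most 0.01 FPKM in every control mouse with a PZH mean of at least 10 FPKM: Coq8a-217, Cyp4f14-204 and Alas1-201. The reverse held for 4 transcripts, Rps2-208, Syvn1-207, Osbpl9-214 and Mgst1-207. All 7 were chosen by these values. A single PZH mouse carried all of Cyp4f14-204 (mean 11.7 FPKM, highest mouse 70.0 FPKM). A single control mouse carried all of Mgst1-207 (mean 11.1 FPKM, highest mouse 66.4 FPKM).

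Coq8a-201 carried nearly all of the gene in the control group and varied widely in the PZH group. In control mice 1 to 6 it was 3.63, 10.7, 13.5, 8.31, 5.02 and 6.80 FPKM. In PZH mice 1 to 6 it was 38.8, 5.50, 28.7, 30.2, 19.4 and 7.96 FPKM. The groups overlapped: 4 of 6 PZH mice lay above the highest control mouse, and PZH mice 2 and 6 lay within the control range. The means were 21.8 ± 13.2 FPKM in the PZH group against 7.99 ± 3.66 FPKM in the control group (SD, n = 6 each), a log2 difference of 1.17 (SE 0.46) that ranked 308th among transcripts. Leaving out each mouse in turn gave 0.95 to 1.47 for Coq8a-201, 3.94 to 4.63 for Coq8a-217 and 2.19 to 2.51 for the gene sum.

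Within the PZH group the full-length transcripts stood in nearly opposite order over the mice. Coq8a-217 made up 5.97%, 79.6%, 36.6%, 40.7%, 51.3% and 80.8% of the gene sum in PZH mice 1 to 6, and Coq8a-201 made up 91.6%, 18.1%, 62.1%, 58.2%, 42.2% and 17.1%. PZH mouse 1, the lowest in Coq8a-217, was the highest in Coq8a-201, and PZH mice 2 and 6, highest in Coq8a-217, were lowest in Coq8a-201. The coefficient of variation was 60.6% for Coq8a-201 and 54.4% for Coq8a-217, against 16.6% for the sum. The mean share of Coq8a-217 was 49.2% ± 28.4 (SD, n = 6) in the PZH group against 0.0189% in the control group, where Coq8a-201 held 95.9% ± 1.72 (SD, n = 6). Without PZH mouse 1, a choice made after seeing its values, the PZH mean shares were 57.8% for Coq8a-217 and 39.6% for Coq8a-201. Fragments of the 14 shared exons can be given to either transcript only by the first exon, and the part of that division in these shares was not tested. The plot of Coq8a transcripts by mouse shows both the division and the steadier sum.

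**Figure D2:**
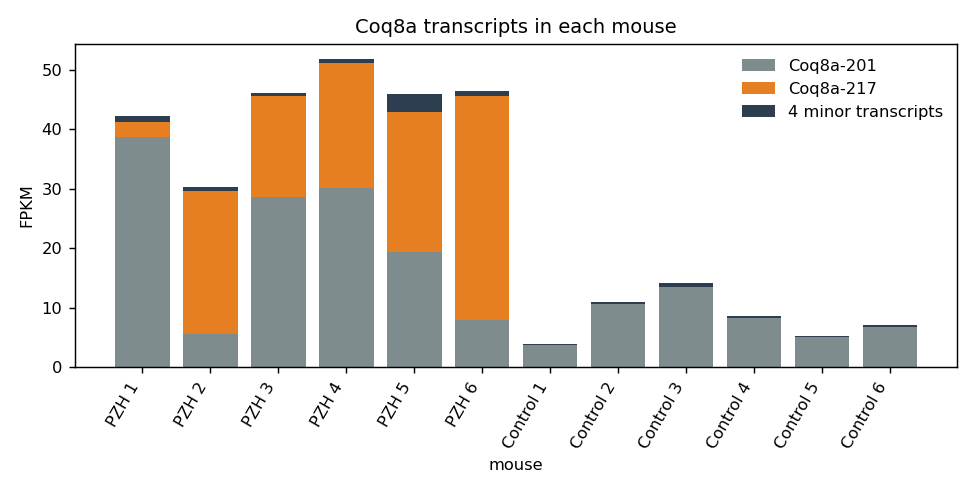
FPKM of Coq8a transcripts in each of the 12 mice, stacked: Coq8a-201 in grey, Coq8a-217 in orange and the 4 minor transcripts together in dark blue. Bar heights are the gene sums, 30.3 to 51.8 FPKM in PZH mice and 3.91 to 14.1 FPKM in control mice, and the orange part is visible in PZH mice alone.

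The 4 minor transcripts stayed below 1 FPKM, with 1 exception. Coq8a-207, which shares its first exon with Coq8a-217, was listed at 0 in all 6 control mice and at 0.0229, 9e-06, 0.0087, 0.00023, 1.96 and 0.0122 FPKM in PZH mice 1 to 6. PZH mouse 5 alone gave nearly all of its PZH mean of 0.333 FPKM. Coq8a-203 averaged 0.238 ± 0.135 FPKM in the PZH group against 0.0719 ± 0.0744 FPKM in the control group (SD, n = 6 each), and 3 of 6 PZH mice lay above every control mouse. Coq8a-213, which starts in the first exon of Coq8a-201, averaged 0.182 ± 0.113 and 0.0468 ± 0.0442 FPKM, with 5 of 6 PZH mice above every control mouse. Coq8a-215 averaged 0.385 ± 0.181 and 0.199 ± 0.168 FPKM, with 1 of 6 PZH mice above every control mouse. Together they made up 1.06% to 6.51% of the gene sum in PZH mice. The long noncoding transcript Gm37336-201, the only one listed within 5000 bases of Coq8a, averaged 0.146 FPKM in the PZH group against 0.0624 FPKM in the control group, with overlapping ranges. Coq8a also overlaps 366 bases of Cdc42bpa on the opposite strand, and the libraries were strand-specific.

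The paralog Coq8b (chromosome 7) moved the other way. Its gene sum was 6.40, 9.98, 8.66, 8.00, 9.80 and 7.98 FPKM in PZH mice 1 to 6 and 11.8, 12.5, 13.1, 9.93, 15.4 and 19.9 FPKM in control mice 1 to 6. The groups overlapped narrowly, since 5 of 6 PZH mice lay below the lowest control mouse and PZH mouse 2 just above it. The means were 8.47 ± 1.33 and 13.8 ± 3.51 FPKM (SD, n = 6 each), a log2 difference of −0.62 (SE 0.15, limma adjusted p = 0.0039 over all gene sums), and −0.45 (adjusted p = 0.014) with median-ratio scaling. Coq8b-201 (ENSMUST00000003860, chr7:27233023-27257950) made up 93.8% and 95.6% of the sum in the 2 groups and fell by 0.65 with no overlap (limma adjusted p = 0.0082 over all transcripts). Coq8b-202 (ENSMUST00000108378), with a coding sequence of the same length of 1599 bases, averaged 0.545 ± 0.383 and 0.615 ± 0.360 FPKM and did not pass the test (log2 difference −0.07, limma adjusted p = 0.85). The ratio of Coq8a to Coq8b, a description since Coq8a was chosen, was 3.04 to 6.62 in PZH mice (mean 5.33 ± 1.33, SD, n = 6) and 0.332 to 1.08 in control mice (mean 0.641 ± 0.336, SD, n = 6).

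Coq9, a lipid-binding protein that the hydroxylase Coq7 needs, was the one gene of the other 9 called higher on the deposited scale. Its sum was 21.7, 24.5, 27.4, 26.2, 27.3 and 28.6 FPKM in PZH mice 1 to 6. It was 15.4, 20.6, 19.9, 16.8, 16.7 and 20.04 FPKM in control mice 1 to 6. Every PZH mouse lay above every control mouse, if narrowly for PZH mouse 1. The means were 26.0 ± 2.47 and 18.3 ± 2.20 FPKM (SD, n = 6 each), a 1.42-fold difference and a log2 difference of 0.49 (SE 0.089, limma adjusted p = 0.00076), or 0.67 (adjusted p = 9.7e-05) with median-ratio scaling. Coq9-201 (ENSMUST00000034234, chr8:94838321-94854895) made up 99.11% of the sum in the PZH group against 99.15% in the control group. This transcript also rose by 0.49 (limma adjusted p = 0.0026). Coq9-204 (ENSMUST00000159871) averaged 0.227 ± 0.108 and 0.164 ± 0.142 FPKM (SD, n = 6 each), with a limma adjusted p of 0.61.

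Of the enzymes that build and attach the tail, none passed the test on the deposited scale. Pdss1 and Pdss2 are the subunits of the synthase that makes the tail. Pdss1 (chromosome 2) was 2.19, 2.60, 1.99, 1.64, 1.76 and 1.62 FPKM in PZH mice 1 to 6 and 2.68, 1.79, 2.62, 2.65, 2.59 and 2.19 FPKM in control mice 1 to 6, with means of 1.97 ± 0.379 and 2.42 ± 0.357 FPKM. PZH mouse 2 and control mouse 2 stood apart from their groups, on the side of the other group. The log2 difference was −0.21 (SE 0.097, limma adjusted p = 0.0996), and it passed without PZH mouse 2 (−0.26, adjusted p = 0.030) or without control mouse 2 (−0.26, adjusted p = 0.033). Pdss2 (chromosome 10) was between 2.33 and 2.80 FPKM in PZH mice (median 2.47) and between 1.76 and 3.09 FPKM in control mice (median 2.22), a log2 difference of 0.08 (SE 0.10, limma adjusted p = 0.58). Its values lay within the control range in all 6 PZH mice. Coq2 (chromosome 5), which joins the tail to the ring, was 12.8, 11.7, 11.3, 12.3, 11.0 and 11.0 FPKM in PZH mice 1 to 6 and 8.58, 11.0, 12.4, 9.52, 9.48 and 10.9 FPKM in control mice 1 to 6. Control mice 2 and 3 lay within the PZH range, so the groups overlapped. The log2 difference was 0.17 (SE 0.082, limma adjusted p = 0.11), and without control mouse 3 it was 0.22 (adjusted p = 0.032).

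The transcripts of these genes showed where the sums came from. Pdss1-201 (ENSMUST00000053729) averaged 1.21 ± 0.336 FPKM in the PZH group against 1.32 ± 0.180 FPKM in the control group. Pdss1-207 (ENSMUST00000152170), with a shorter coding sequence of 840 bases against 1227, averaged 0.605 ± 0.171 and 0.900 ± 0.241 FPKM, and 3 of 6 PZH mice lay below every control mouse (log2 difference −0.24, limma adjusted p = 0.12). Pdss1-204 (ENSMUST00000141215) averaged 0.150 ± 0.111 and 0.195 ± 0.0521 FPKM. Pdss2-201 (ENSMUST00000095725) averaged 2.24 ± 0.303 and 2.01 ± 0.835 FPKM, and its spread was wider among control mice, from 1.07 to 3.09 FPKM. Pdss2-202 (ENSMUST00000159139) was above 0.02 FPKM in control mouse 5 alone, and Pdss2-205 (ENSMUST00000162008) averaged 0.248 ± 0.217 and 0.169 ± 0.265 FPKM. Coq2-201 (ENSMUST00000031262) averaged 10.2 ± 0.359 and 9.19 ± 0.939 FPKM (log2 difference 0.14, limma adjusted p = 0.19). Coq2-205 (ENSMUST00000135801), a short form annotated as incomplete, averaged 1.47 ± 0.661 and 1.13 ± 0.755 FPKM.

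The enzymes that modify the ring were close between the groups. Coq3, which methylates oxygens of the ring, was 8.07, 5.61, 6.38, 6.70, 7.04 and 6.75 FPKM in PZH mice 1 to 6 and 5.97, 6.78, 5.89, 4.89, 6.47 and 5.77 FPKM in control mice 1 to 6, all from Coq3-201 (ENSMUST00000029909, chr4:21879673-21912162). The groups overlapped (log2 difference 0.15, SE 0.085, limma adjusted p = 0.16). Coq5, which methylates a ring carbon, was 8.04, 8.88, 8.79, 9.44, 8.46 and 8.81 FPKM in PZH mice 1 to 6 and 7.67, 8.49, 8.41, 7.30, 8.06 and 8.10 FPKM in control mice 1 to 6, all from Coq5-201 (ENSMUST00000040421, chr5:115279666-115296972). It was the steadiest member within groups, with 4 of 6 PZH mice above the highest control mouse (log2 difference 0.11, SE 0.057, limma adjusted p = 0.12). Coq7, the hydroxylase of a late step, was 11.6, 9.52, 8.90, 8.10, 8.79 and 7.49 FPKM in PZH mice 1 to 6 and 7.48, 8.78, 7.56, 7.46, 7.91 and 9.47 FPKM in control mice 1 to 6. The groups overlapped, with 4 of 6 PZH mice inside the control range (log2 difference 0.14, SE 0.095, limma adjusted p = 0.26). With median-ratio scaling Coq2, Coq3, Coq5 and Coq7 passed, at log2 differences of 0.35 (adjusted p = 0.0092), 0.32 (adjusted p = 0.024), 0.28 (adjusted p = 0.0030) and 0.31 (adjusted p = 0.027), all limma.

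Neither transcript of Coq7 passed the test with all mice on the deposited scale. Coq7-201 (ENSMUST00000032887, chr7:118525062-118533356) averaged 8.96 ± 1.42 FPKM in the PZH group against 7.67 ± 0.724 FPKM in the control group (log2 difference 0.19, limma adjusted p = 0.19). Coq7-205 (ENSMUST00000209146), with a coding sequence of 666 bases against 651, was 0.0806, 0, 0.501, 0, 0.0438 and 0 FPKM in PZH mice 1 to 6 and 0.133, 0.732, 0.674, 0.452, 0 and 0.671 FPKM in control mice 1 to 6. Its log2 difference was −0.37 (SE 0.16, limma adjusted p = 0.13), which passed without control mouse 5 (−0.47, adjusted p = 0.042) or without PZH mouse 3 (−0.46, adjusted p = 0.0496).

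Coq6, a flavin enzyme that hydroxylates the ring, was the lowest member and the least steady. Its sum was 0.600, 1.25, 0.010, 1.16, 0.813 and 0.826 FPKM in PZH mice 1 to 6 and 1.33, 0.139, 0.557, 1.51, 0.0616 and 0.277 FPKM in control mice 1 to 6. No order of the groups could be read from these values (log2 difference 0.15, SE 0.25, limma adjusted p = 0.66). The highest of its transcripts on average was Coq6-207 (ENSMUST00000145522), a form of 6 exons and 699 bases, at 0.626 ± 0.397 and 0.392 ± 0.395 FPKM. The full-length Coq6-201 (ENSMUST00000021661, 12 exons) averaged 0.0482 ± 0.0296 and 0.148 ± 0.154 FPKM, and Coq6-202 (ENSMUST00000110276) was above 0.1 FPKM in PZH mouse 4 and control mouse 4 alone. The annotation held 11 Coq6 transcripts, and the 8 that the protein-coding table did not list were not analysed here.

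**Figure D3:**
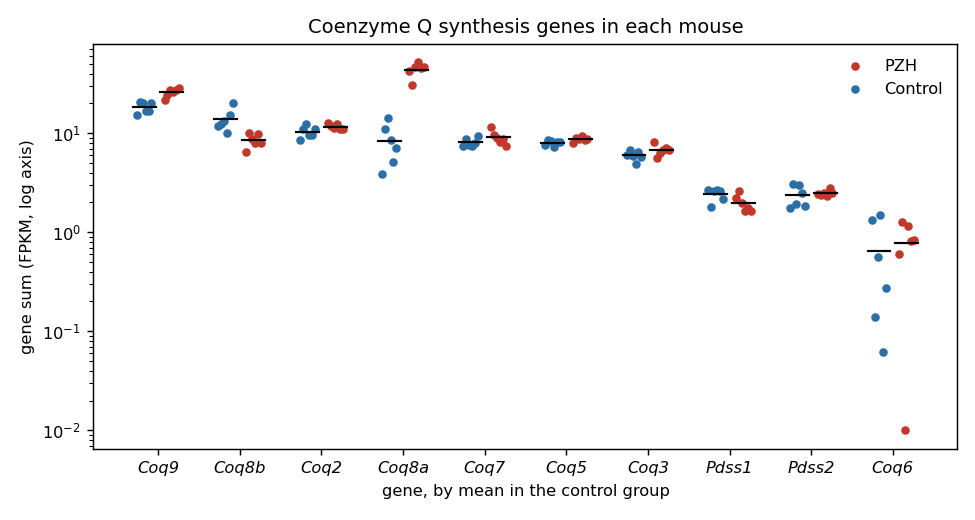
Gene sums in FPKM, on a log axis, of the 10 genes in each of the 12 mice, with PZH mice in red, control mice in blue and group means as black lines, ordered by the control mean. Coq8a moves from the 4th level in the control group to the 1st in the PZH group, and Coq6 is lowest in both.

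Ordered by level, Coq8a was the highest member in the PZH group at 43.9 FPKM, followed by Coq9 at 26.0, Coq2 at 11.7, Coq7 at 9.07, Coq5 at 8.74, Coq8b at 8.47, Coq3 at 6.76, Pdss2 at 2.49, Pdss1 at 1.97 and Coq6 at 0.777 FPKM. The ranges over mice did not overlap between Coq8a and Coq9, between Coq9 and Coq2, between Coq3 and Pdss2, or between Pdss1 and Coq6, and overlapped between all other neighbours. In the control group the order was Coq9 at 18.3, Coq8b at 13.8, Coq2 at 10.3, Coq8a at 8.31, Coq7 at 8.11, Coq5 at 8.00, Coq3 at 5.96, Pdss1 at 2.42, Pdss2 at 2.35 and Coq6 at 0.645 FPKM. There the ranges were apart only between Coq5 and Coq3, between Coq3 and Pdss1 and between Pdss2 and Coq6. Coq8a stood below Coq8b in the control mean and above it in the PZH mean.

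Among the 9 genes other than Coq8a, 1 gene sum was higher and 1 lower in the PZH group at a limma adjusted p below 0.05, against 44.8% of all gene sums called (12.7% higher, 32.1% lower). The members' share, 22.2%, was below that background on the deposited scale. At the study's rule of a 2-fold change with P below 0.05, 0 of the 9 gene sums passed, against 4.02% of all gene sums, and 2 had an unadjusted limma P below 0.05. The groups did not overlap for 1 of the 9, against 24.3% of all gene sums. Of the 19 transcripts, 2 passed the adjusted p (1 higher and 1 lower, 10.5% in all, against 19.7% of all transcripts, 5.73% higher and 14% lower), 0 passed the 2-fold rule (against 3.23%), 4 had an unadjusted P below 0.05 and 2 did not overlap (against 12%). The median log2 difference of the 9 gene sums was 0.14, where that of all genes was −0.11. With median-ratio scaling 5 of the 9 were higher and 1 lower, against 39.1% of all gene sums called (19.8% higher), and their median was 0.28. The members' share was then above the background, so its side depended on the scale, and both shares rest on 9 genes.

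Of 6 related genes outside the main synthesis list, none passed the test on the deposited scale, and 0 had an unadjusted limma P below 0.05. Coq4, a further member of the synthesis complex, and the Q-binding proteins Coq10a and Coq10b gave 0 calls of 3, with log2 differences from −0.25 for Coq10b (limma adjusted p = 0.13) to 0.13 for Coq10a (limma adjusted p = 0.40). Coq10b passed without control mouse 3 (−0.33, limma adjusted p = 0.029) and Coq10a with median-ratio scaling (0.29, limma adjusted p = 0.046). The other UbiB genes Adck1, Adck2 and Adck5 also gave 0 calls of 3, from −0.11 for Adck2, which turned to 0.02 with median-ratio scaling, to 0.15 for Adck5.

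Of 6 enzymes of the mevalonate route, which supplies the tail, 2 were higher and 0 lower, against 12.7% of all gene sums higher and 32.1% lower. Mvk, mevalonate kinase, averaged 8.29 ± 2.14 FPKM in the PZH group against 5.18 ± 1.22 FPKM in the control group (log2 difference 0.58, SE 0.17, limma adjusted p = 0.013). Pmvk, the kinase of the next step, averaged 14.05 ± 2.82 and 10.2 ± 2.84 FPKM (log2 difference 0.43, SE 0.17, limma adjusted p = 0.0497). This call of Pmvk was lost without any 1 of control mice 1, 4, 5 and 6 or PZH mice 1, 2, 4 and 6, with adjusted p between 0.077 and 0.11, and with a pseudocount of 0.1, equal sums of FPKM or no variance moderation (adjusted p between 0.059 and 0.081). Mvd, which acts after both kinases, had the lowest difference, −0.17 (limma adjusted p = 0.48).

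Of the 10 enzymes that pass electrons to coenzyme Q, 4 were higher and 0 lower, against 12.7% of all gene sums higher and 32.1% lower. Prodh, proline dehydrogenase, was 16.6 to 36.3 FPKM in PZH mice and 7.14 to 11.7 FPKM in control mice, with no overlap (log2 difference 1.46, SE 0.19, limma adjusted p = 7.8e-05). Prodh2, which oxidises hydroxyproline, rose by 0.52 (SE 0.16, limma adjusted p = 0.018), and Etfdh, which carries electrons from fatty acid oxidation, by 0.30 (SE 0.090, limma adjusted p = 0.015). Sdhb, a subunit of complex II, averaged 83.4 ± 18.7 and 63.7 ± 7.13 FPKM (log2 difference 0.36, limma adjusted p = 0.043), a call that was lost without any 1 of control mice 1 to 5 or PZH mice 1, 4, 5 and 6, with adjusted p between 0.057 and 0.093, and with a pseudocount of 0.1 (adjusted p = 0.056) or no variance moderation (adjusted p = 0.067). Its partner Sdha had the smallest difference, 0.05 (limma adjusted p = 0.57). The median of the list was 0.22, and all 10 differences were above 0, as were those of 4939 of the 14188 genes. With median-ratio scaling 9 were higher, against 19.8% of all gene sums. The plot of differences shows these lists on both scales.

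**Figure D4:**
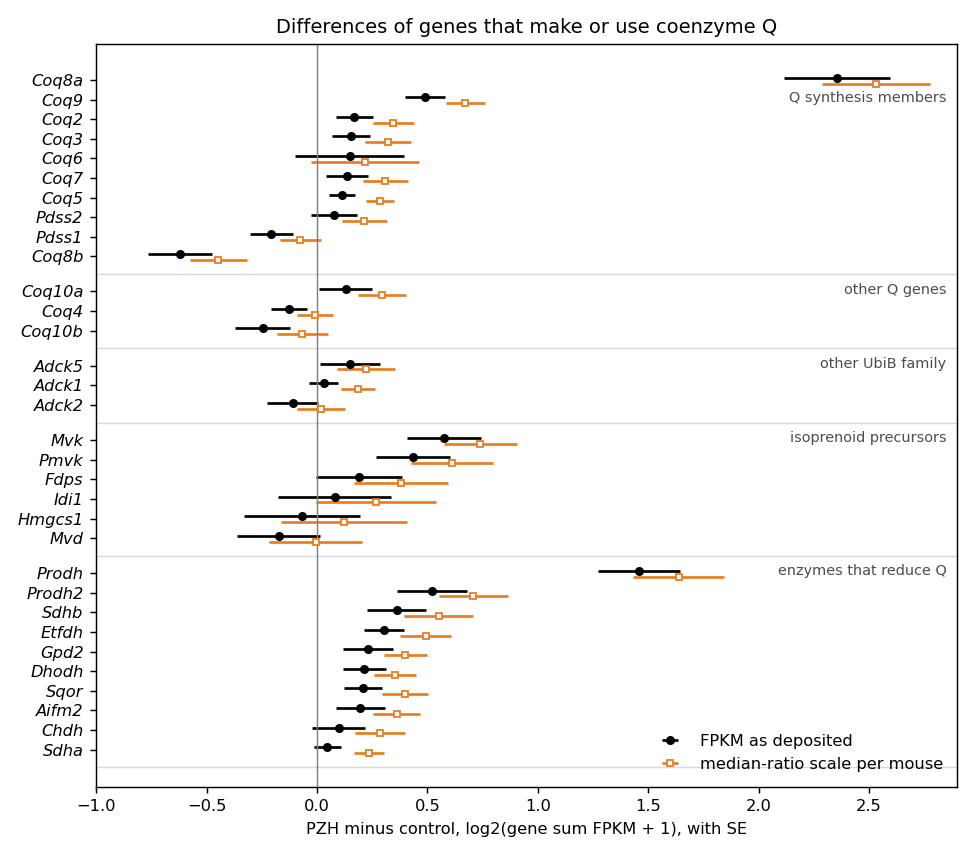
PZH minus control difference in log2(gene sum FPKM + 1), with its standard error, for the 10 members and 4 lists of genes that make or use coenzyme Q, on the deposited scale (black) and after median-ratio scaling (orange). Coq8a at 2.35 and Prodh at 1.46 stand to the right of all others, Coq8b at −0.62 is lowest, and the orange points lie to the right of the black.

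Over the 12 mice, the genes whose log2(FPKM + 1) followed that of Coq8a most closely, among 10947 others with a mean of at least 1 FPKM, were Pank1 (Pearson r = 0.99), a kinase of coenzyme A synthesis, Aqp11 (0.99), Siae (0.99), Adh4 (0.99), a retinol and alcohol dehydrogenase, and Aldh8a1 (0.99). Such r values rest in part on the distance between the group means. For deviations from the group means the 5 most alike were Pbld1 (r = 0.91), Adh4 (0.91), Sgk2 (0.91), Pank1 (0.91) and Aqp11 (0.89). With Spearman's rank correlation 0 of the former 5 and 2 of the latter 5 were again among the 5 most alike. Of the members, Coq9 had r = 0.93 over the mice and 0.67 over deviations, Coq2 0.73 and 0.72, and Coq8b −0.77 and −0.18. Pdss1 had −0.66 and −0.49, Coq5 0.71 and 0.38, and Coq3 0.51 and 0.12. Coq7 had 0.36 and −0.086, and Pdss2 0.31 and 0.30. All genes of a mouse come from the same library and the same treatment, so these r values are descriptions.

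Markers of liver cells moved as well. The liver label was borne out by the hepatocyte markers Alb, Apoa1, Ttr, Apoc3, Tat and Asgr1, all abundant. Their summed level was 39408 to 54738 FPKM in PZH mice and 21879 to 35379 FPKM in control mice. Of these 6, 3 were higher (limma adjusted p below 0.05), Alb by 0.68. Over all gene sums 12.7% were higher and 32.1% lower at that limit, and the marker counts of every cell type stand against these shares. The 8 stellate cell and myofibroblast markers summed to 109 to 185 FPKM and 100.3 to 167 FPKM, with 1 higher, Col3a1 by 0.62, and 3 lower, among them Tagln, which fell by 1.38. The 6 macrophage markers summed to 135 to 193 and 123 to 179 FPKM, with 3 higher and 2 lower, from Clec4f at 0.60 to Marco at −2.21. The call of Clec4f was lost without PZH mouse 3 (0.50, limma adjusted p = 0.055). The 5 endothelial markers summed to 70.1 to 85.4 and 74.0 to 84.6 FPKM, with 0 higher and 2 lower, and the 5 bile duct markers to 66.9 to 133 and 96.9 to 161 FPKM, with 0 higher and 1 lower, Sox9. With median-ratio scaling 39.1% of all gene sums were called, 19.8% as higher. The hepatocyte markers then gave 5 higher and the stellate cell markers 3 higher and 3 lower. The macrophage markers gave 4 higher and 1 lower (Cd68, at −0.13, no longer passed, limma adjusted p = 0.19). The endothelial markers gave 1 higher, Kdr, and 1 lower (Pecam1, at −0.12, no longer passed, limma adjusted p = 0.20). The bile duct markers gave 1 higher, Epcam by 0.37 (limma adjusted p = 0.046), and 1 lower, Sox9. Of these 30 markers, 1 bile duct marker was at 0 in some mouse. The part of the hepatocyte level in the values of Coq8a and the other members was not tested. In whole liver, more cells of a type and more RNA per cell cannot be told apart.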

How the data were processed

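Ribosomal-RNA-depleted, strand-specific liver RNA-seq of 12 mice was used, 6 per group by title. Per the labels, the authors trimmed reads with Trimmomatic, aligned them to GRCm38 with HISAT2 and assembled and quantified transcripts with StringTie. The deposited values are FPKM per transcript, already filtered: every listed protein-coding transcript summed to at least 1.0 FPKM over the mice. Of the 35 protein-coding transcripts annotated for the 10 genes (72 of any type, GENCODE M21), 25 were listed, 11 with a mean of at least 1 FPKM, and a transcript may have been listed through 1 group alone. The sequencing depth of each library is unknown: whole reads could not be recovered, since at most 13.9% of low values in a mouse lay on read steps (tolerance 0.05%), so no counting interval is given. FPKM sums were 325302 to 370426 per mouse over the protein-coding table. P-values set the difference between the groups against the spread between mice.

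FPKM were tested as log2(FPKM + 1) with limma 3.58.1 in R 4.3.3 (moderated, two-sided, Benjamini-Hochberg over all 29883 transcripts or all 14188 gene sums), with no low-value filter, after tests on simulated data. Fold changes on this scale understate the change of low genes. The members and lists were chosen with earlier results of these data known. Named were all transcripts of the members, 2 to 4 genes of each list with the largest and smallest differences, a few more with calls, and the 5 genes most like Coq8a. Alternatives were a pseudocount of 0.1, a filter at a mean of 1 FPKM, median-ratio and equal-sum scaling, no moderation, a mean-variance trend, the replicate block and each mouse left out. Same-strand overlaps with other genes exist for Coq8b, Pdss1 and Pdss2, whose values may share reads with them. Promoter windows came from RefSeq, without Coq8b and Coq5. Of the 1432 long noncoding transcripts, only those near members were used. Labels gave no batch. Some results are not reported here.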

Additional observations from a re-analysis of the deposited data

Results flagged for a closer look

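Within each group of 6 mice, a mouse was marked when its gap to the nearest other mouse took up more of the group's range than Dixon's critical value allows. Of 65 groups of values tested, 11 were marked. The critical value marks about 1 in 20 groups only for independent, normally spread values. Transcripts with most mice at or near 0 are not spread so, and gene sums share values with their transcripts. No excess is therefore read from this count. For Coq8a these were Coq8a-207 in PZH mouse 5 (1.96 FPKM, the others at most 0.0229), Coq8a-215 in control mouse 3 (0.531 FPKM, the others 0.0671 to 0.178) and Coq8a-203 in control mouse 6 (0.217 FPKM, the others 0.0122 to 0.0714). Coq6-202 was marked in PZH mouse 4 (0.621 FPKM, the others at 0) and in control mouse 4 (0.554 FPKM, the others at most 0.0733), and Coq6-201 in control mouse 1 (0.451 FPKM, the others 0.0235 to 0.139). Pdss2-202 was marked in PZH mouse 1 (0.0075 FPKM, the others at 0) and in control mouse 5 (0.992 FPKM, the others at most 0.0175), and the Pdss2 gene sum in PZH mouse 5 (2.80 FPKM, the others 2.33 to 2.50). Pdss1-201 was marked in control mouse 2 (0.970 FPKM, the others 1.33 to 1.47) and Coq7-205 in PZH mouse 3 (0.501 FPKM, the others at most 0.0806). Of the 11, 10 were single transcripts, and 1 was a gene sum. No full-length Coq8a transcript was marked.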

How the results depend on the processing

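With a pseudocount of 0.1, 1 of the 19 transcripts of the genes other than Coq8a passed the 2-fold rule in place of 0 (Coq7-205, against 9.98% of all transcripts). With median-ratio scaling, 5 of these 19 transcripts passed the adjusted p in place of 2 (against 16.9% of all transcripts), and 6 of the 9 gene sums in place of 2. Leaving out each mouse in turn gave 2 to 3 transcripts and 2 to 3 gene sums at the adjusted p and 0 at the 2-fold rule on both levels, and a Coq8a gene sum difference of 2.19 to 2.51. Without variance moderation Coq5 passed (adjusted p = 0.049). Differences that changed sign under median-ratio scaling were Coq6-202 (0.011), Pdss1-201 (0.022), Adck2 (0.018), Hmgcs1 (0.12), Clec4g (0.16) and Krt19 (0.10), and under equal sums of FPKM Adck1 (−0.0044). On leaving out mice, sign changes occurred in Coq6-202 (−0.12 to 0.096), Coq8b-202 (−0.20 to 0.031), Adck1 (−0.0097 to 0.063), Hmgcs1 (−0.20 to 0.11), Idi1 (−0.025 to 0.26), Clec4g (−0.077 to 0.048), Krt19 (−0.14 to 0.051) and Krt7 (−0.067 to 0.0016). None of these passed a test on the deposited scale, and the cause of each change was not tested.

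Mice with the same number did not deviate together (r of −0.078 to 0.093 over the 6 pairs, gene sums). No pairing by number was seen in these values, which does not exclude one in how the mice were handled. With the replicate block the counts of member calls stayed at 2 gene sums and 2 transcripts, and of 80 single differences 3 gained and 2 lost a call (Pmvk, adjusted p = 0.10, and Sdhb, adjusted p = 0.060). The unknown depth, the division of reads among isoforms with shared exons and the 6 mice per group limit every value here, most of all for the 14 member transcripts with a mean under 1 FPKM. Summed levels rest on the listed transcripts alone.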
